A study of Mus musculus with 10 samples.

Results

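The AMPA and kainate receptor subunit genes are the 9 mouse genes *Gria1*, *Gria2*, *Gria3*, *Gria4*, *Grik1*, *Grik2*, *Grik3*, *Grik4* and *Grik5*, taken by symbol from the 33502 gene symbols of the deposited count table. All 9 were found and all 9 passed the filter on low counts in the comparisons across cell types and across neurons. The nuclei came from punches that took the thalamic paraventricular nucleus (PVT) with the tissue around it in C57BL/6J mice aged 12 weeks that had received no treatment, with several mice pooled per library. The 10 libraries hold 20503 nuclei: 6 libraries are labelled female, and the other 4 name no sex in their titles but are marked male in the deposited metadata and are called male below. Each nucleus carries the cell type that the authors gave it. Expression is given as CPM, the UMIs (counted molecules) of a gene in the sum of a library's nuclei of one group. They are relative to the UMIs of the genes in that sum that passed the filter, scaled by the trimmed mean of M values. The filter and scaling were set in each comparison apart, so CPM can be compared within a comparison and not between them. *Grik2* in the neurons of library M4, for example, was 3501 CPM in the comparison of cell types and 2580 in that of female and male libraries.

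AMPA receptors are tetramers of the subunits GluA1 to GluA4, encoded by *Gria1* to *Gria4*, and carry most fast excitatory transmission in the brain. Kainate receptors are built from GluK1, GluK2 and GluK3 (*Grik1* to *Grik3*), which can form channels by themselves, and from GluK4 and GluK5 (*Grik4* and *Grik5*), which need one of the former as a partner. In the pore of GluA2, GluK1 and GluK2 a glutamine codon of the gene is changed in the RNA by the deaminase ADAR2 (*Adarb1*), and AMPA receptors that contain the edited GluA2 pass little calcium. Counts of molecules per gene do not read this edit, so every value below is an amount of RNA and not its edited state.

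The stretch around this codon is printed for 5 members, the 3 that are edited and 2 AMPA subunits that are not, because the edit at this codon sets the calcium permeability of the receptor. Sequences are from GENCODE M21 transcripts on GRCm38, run 5′ to 3′ on the coding strand, span 45 bases, and carry the glutamine codon in capitals.
Gria1: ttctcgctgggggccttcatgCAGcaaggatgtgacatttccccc
Gria2: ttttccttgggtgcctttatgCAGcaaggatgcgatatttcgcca
Gria4: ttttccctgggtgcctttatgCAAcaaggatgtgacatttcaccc
Grik1: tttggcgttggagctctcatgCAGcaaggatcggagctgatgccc
Grik2: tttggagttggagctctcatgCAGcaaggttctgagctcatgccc
*Gria1* lies at chr11:57011387-57330244 on the + strand and its codon at chr11:57243094-57243096 is in coding exon sequence, exon 11 of 16. *Gria2* lies on the − strand at chr3:80681450-80802835 with the codon at chr3:80706911-80706913 in exon 11 of 16. *Gria4* lies on the − strand at chr9:4417896-4796234 with the codon, here spelled CAA, at chr9:4464137-4464139 in exon 12 of 17. *Grik1* lies on the − strand at chr16:87895900-88290265 with the codon at chr16:87940542-87940544 in exon 13 of 18, and *Grik2* on the − strand at chr10:49094833-49788766 with the codon at chr10:49244329-49244331 in exon 12 of 16. Of the 45 bases, *Gria4* shares 39 with *Gria2*, *Gria1* 36, *Grik1* 29 and *Grik2* 27.

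Female libraries held 1049 to 1615 nuclei and 5119927 to 12891409 UMIs each, and male libraries 875 to 7213 nuclei and 7568267 to 55956635 UMIs. The median neuron had 5666 to 9770 UMIs in female and 12586 to 21085 in male libraries, so sex cannot be told apart from depth and from the separate deposit of the male and female sets. The sets also differ in gene annotation, and only male nuclei carry a doublet call. Of 20457 distinct 16-base barcodes, 46 occur in more than 1 library. The cell types hold 10410 neurons, 5302 astrocytes, 2462 oligodendrocytes, 993 microglia, 473 oligodendrocyte precursor cells (OPCs), 469 ependymal, 215 endothelial and 179 fibroblast nuclei, and a library enters a comparison for a group with at least 10 nuclei. One male library, M4, stands apart. Summed over 8 neuron genes (*Rbfox3*, *Slc17a6*, *Syt1*, *Snap25*, *Stmn2*, *Celf4*, *Nrgn* and *Syn1*), its level in each of the 7 other cell types was the highest of any library, from 21.5% of its own neurons' level in astrocytes to 62.9% in OPCs. Over all libraries the same sum averaged 11.8% of the neuron level in astrocytes, 16.3% in oligodendrocytes, 20.6% in microglia, 20.9% in endothelial cells, 22.2% in OPCs, 22.7% in ependymal cells and 26.7% in fibroblasts. Single genes of the sum differed, in astrocytes from 6.48% (*Rbfox3*) to 72.6% (*Nrgn*). The sum is set beside members below, and what part of a member's level it stands for was not tested.

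Each of the 9 subunit genes was higher in neurons than in the mean of the 7 other cell types, at a background of 34.8% of 9842 tested genes that were higher there. OPCs, the dividing progenitors of oligodendrocytes, were higher for 8 of 9, at a background of 20%. Astrocytes were higher for *Gria1*, *Gria2* and *Grik5*, at a background of 21.5%, and lower for 5 members, at a background of 19.7%. A difference is called here when edgeR's quasi-likelihood test, with library as a block, gives a Benjamini-Hochberg adjusted p under 0.05 over all tested genes and the log2 difference is over 0.5 in size. The median log2 difference of the 9 members in neurons was 2.11, against 0.16 over all tested genes. For *Gria1*, 6 of 10 libraries had neurons over the average of the remaining types, and for the other 8 members 10 of 10. The cell types rest on the authors' clusters, formed from all genes, members included, so these differences describe the clusters.

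*Gria1*, which encodes GluA1, was the subunit whose level set astrocytes furthest apart. In astrocytes its lowest library had 2573 CPM, the median 3519 and the highest 6709, while neurons ran from 596 over a median of 762 to 1265. The groups do not overlap, and astrocytes exceeded neurons in 10 of 10 libraries. The difference was 2.23 ± 0.34 (log2, SE; adjusted p = 3.6e-08, edgeR), and astrocytes stood 4.15 ± 0.21 above the mean of the other types, 4.27 within female and 4.09 within male libraries. Thinned to 2000 UMIs per nucleus, 97.1% ± 1.92 (SD, n = 10 libraries) of astrocytes and 62.6% ± 6.23 of neurons had a *Gria1* molecule, with 994 and 197 shallower nuclei left out. At full depth the shares were 96.0% and 91.1%, at median depths of 3006.5 and 11157 UMIs. For the neuronal gene *Rbfox3*, which astrocytes should lack, the thinned shares were 2.53% and 35.2%. OPCs ranged from 82.1 to 824 CPM, with the highest value in library M4, and oligodendrocytes from 42.0 to 274. Between OPCs and oligodendrocytes the difference of 0.77 ± 0.39 did not pass the test (adjusted p = 0.105, edgeR).

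*Gria2*, the subunit that limits calcium entry, was highest in 3 cell types that the test did not separate. Astrocytes had 963 to 1643 CPM (median 1250), OPCs 840 to 1235 (median 1020) and neurons 803 to 1089 (median 1017). The ranges overlap. Astrocytes minus neurons was 0.33 ± 0.26 (log2, SE; adjusted p = 0.24, edgeR), although astrocytes were higher in 10 of 10 libraries. Neurons minus OPCs was −0.07 ± 0.27. The next type down, oligodendrocytes, had 103 to 274 CPM, and neurons exceeded them by 2.56 ± 0.28 (adjusted p = 8.2e-13, edgeR).

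*Gria3* was highest in OPCs, with 454 to 597 CPM (median 491), against 211 to 309.6 in neurons (median 264) and 6.60 to 45.2 in astrocytes (median 17.0). The ranges of OPCs, neurons and astrocytes lie apart from each other. OPCs exceeded neurons by 0.87 ± 0.19 (log2, SE; adjusted p = 7.5e-05, edgeR) and in 9 of 9 libraries, and exceeded astrocytes by 4.56. *Gria4* was at 1117 to 1666 CPM in neurons, 958 to 1394 in OPCs and 286 to 750 in oligodendrocytes. For *Gria4*, neurons and OPCs overlap and differed by 0.07 ± 0.32, while OPCs exceeded oligodendrocytes by 1.48 ± 0.33 (adjusted p = 0.00012, edgeR). In astrocytes *Gria4* had 25.3 to 206 CPM, and *Gria3* and *Gria4* there were at 8.71% and 7.70% of the neuron level, below the 11.8% of the neuron gene sum.

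Among the channel-forming kainate subunits, *Grik2* was highest in neurons at 1592 to 3501 CPM (median 2396). Oligodendrocytes had 736 to 1644 (median 1156) and OPCs 641 to 2019 (median 892). The higher call of *Grik2* in OPCs (1.06 ± 0.25, log2 and SE) was lost within male libraries (0.90, adjusted p = 0.18, edgeR) and with no library block (0.88, adjusted p = 0.053). Neurons exceeded oligodendrocytes in 10 of 10 libraries, by 1.07 ± 0.32 (log2, SE; adjusted p = 0.0021, edgeR), though the ends of the ranges overlap. In oligodendrocytes *Grik2* stood at 54.4% ± 8.57 (SD, n = 10) of the neuron level, against 16.3% for the neuron gene sum, and was called higher there than in the mean of the other types, by 1.38 ± 0.23. *Gria4* was the other member called higher in oligodendrocytes (0.82 ± 0.24), at a background of 20.5%. This is a difference of log2 levels, and by CPM *Gria4* lay above the average of the remaining types in 3 of 10 libraries. Within male libraries it was 0.85 (adjusted p = 0.071). In oligodendrocytes 4 members were lower, at a background of 26.2%. *Grik2* in astrocytes (181 to 700.1 CPM) was at 14.8% of the neuron level and in microglia at 12.8%, beside 11.8% and 20.6% for the neuron gene sum. Its lower call in astrocytes (−0.86 ± 0.26) was lost within female (−0.63, adjusted p = 0.064) and within male libraries (−0.81, adjusted p = 0.14), and without the 5% of nuclei with most UMIs it was −0.45, under the fold limit.

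*Grik1* had 394 to 748 CPM in neurons and 300.5 to 460.4 in OPCs, which overlap and differed by 0.22 ± 0.26 (log2, SE). Oligodendrocytes had 57.5 to 294, below OPCs in 9 of 9 libraries. *Grik3* was higher in OPCs (97.7 to 256 CPM, median 183) than in neurons (94.9 to 171, median 106), by 0.69 ± 0.22 (adjusted p = 0.0059, edgeR) and in 9 of 9 libraries. Its lower calls in astrocytes (−0.65 ± 0.27) and oligodendrocytes (−0.79 ± 0.32) did not hold: within female libraries they were −0.27 and 0.29, and the first lost its call without any one of 6 of the libraries (F1, F2, F3, F4, M3 or M4), with log2 differences of −0.69 to −0.45, and the second without F3 (−0.74), M3 (−0.45) or M4 (−0.53).

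The partner subunits followed another order. *Grik4* was highest in OPCs (259 to 426 CPM, median 352), followed by neurons (167 to 313, median 224) and ependymal cells (99.97 to 351, median 194), the ciliated lining of the ventricle. OPCs exceeded neurons in 9 of 9 libraries by 0.67 ± 0.16 (log2, SE; adjusted p = 0.00016, edgeR), and neurons exceeded ependymal cells by 0.38 ± 0.17 in 7 of 9 (adjusted p = 0.037). *Grik4* was the member called higher in ependymal cells (1.23 ± 0.16, 1.34 within female and 1.25 within male libraries), at a background of 26.7%. *Grik4* there stood at 91.9% ± 27.3 (SD, n = 9) of the neuron level, against 22.7% for the neuron gene sum. *Grik5* was spread over more types, with 96.4 to 156 CPM in neurons, 51.3 to 193 in OPCs and 59.4 to 132 in astrocytes. Neighbours in this order of *Grik5* did not differ by the test, neurons minus OPCs being 0.18 ± 0.16 and OPCs minus astrocytes 0.35 ± 0.17. The ends of the order did: *Grik5* was called lower in astrocytes than in neurons.

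Ependymal cells were lower for *Gria1*, *Gria2* and *Gria4*, at a background of 19.1%. The call of *Gria1* there was lost without F3, F5, F6 or M1 (log2 differences of −0.79 to −0.67). Within male libraries *Gria1* (−0.31, adjusted p = 0.74, edgeR), *Gria2* (−0.84, adjusted p = 0.066) and *Gria4* (−0.83, adjusted p = 0.17) lost their calls. *Gria4* also lost its call within female libraries (−0.90, adjusted p = 0.063). Microglia were lower for 8 members (background 29%), endothelial cells for 7 (background 22.8%) and fibroblasts for *Gria2* and *Grik4* (background 11.4%). In microglia *Gria1* to *Gria4* were at 11.3% to 22.1% of their neuron level, against 20.6% for the neuron gene sum. In these last 3 types the part of neuronal RNA in the members' levels was not tested.

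**Figure D1:**
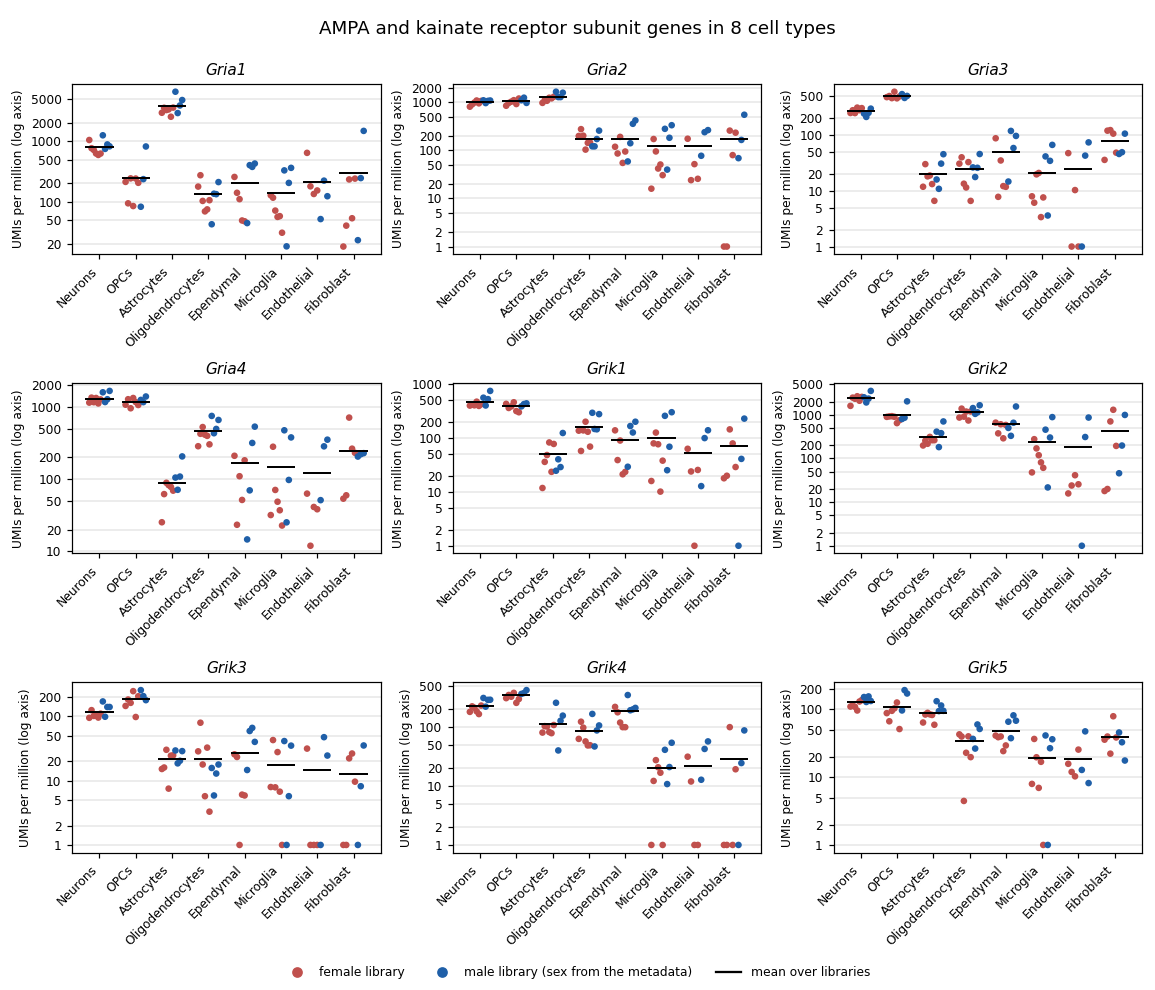
CPM (log axis, values under 1 drawn at 1) of each of the 9 subunit genes in 8 cell types, 1 dot per library (red female, blue male by the metadata) and a bar at the mean over libraries. Gria1 lies highest in astrocytes (mean 3810), Gria3 and Grik4 in OPCs (498 and 345), and Grik2 in neurons (2388).

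The AMPA make-up, given as a share of the UMIs of the 4 *Gria* genes and not corrected for gene length, differed between these types. *Gria1* held 73.0% ± 3.49 (SD, n = 10) in astrocytes, 23.9% ± 4.50 in neurons, 16.4% ± 6.86 in oligodendrocytes and 7.97% ± 5.99 in OPCs, and the astrocyte share was above the neuron share in 10 of 10 libraries by 49.1 ± 3.73 points. *Gria2* held 24.9% in astrocytes, 29.5% in neurons and 35.0% in OPCs. *Gria3* took 16.9% in OPCs and 7.94% in neurons, and *Gria4* 58.8% ± 11.6 in oligodendrocytes. *Gria3* and *Gria4* together left little in astrocytes, with 0.388% and 1.70%. Of the 5 *Grik* genes, *Grik2* held 71.3% ± 3.14 in neurons, 79.3% ± 4.61 in oligodendrocytes, 52.4% ± 5.41 in astrocytes and 47.2% ± 6.37 in OPCs.

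**Figure D2:**
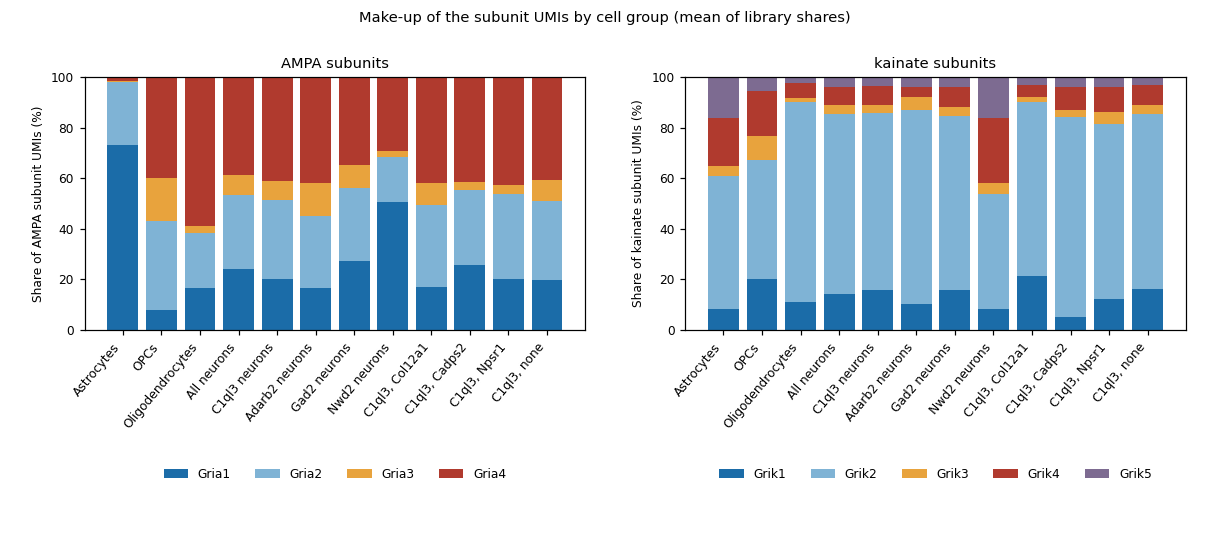
Stacked mean library shares (%) of the UMIs of the 4 AMPA genes (left) and 5 kainate genes (right) by cell group. Gria1 fills 73.0% of the AMPA bar in astrocytes and 50.7% in Nwd2 neurons, and Grik2 falls from 70.3% of the kainate bar in C1ql3 neurons to 45.3% in Nwd2 neurons.

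The deposited annotation divides astrocytes into 2 clusters. In cluster 2, *Gria2* was lower than in cluster 1 by 0.59 ± 0.10 (log2, SE; adjusted p = 1.5e-05, edgeR) and *Grik1* by 0.82 ± 0.25 (adjusted p = 0.014), at a background of 4.26% of 5964 genes. 7 of 9 members passed the count filter there. *Gria2* had 1129 to 1589 CPM in cluster 1 and 529 to 1138 in cluster 2 (n = 9 libraries each), with a small overlap. *Grik1* had 10.2 to 122 and 7.54 to 170.3, which overlap throughout, and its difference was −0.09 within male libraries and lost its call without F3 (−0.72). With no library block it was −0.91 and not called (adjusted p = 0.28, edgeR). The number of members called fell from 2 to 1 without F3, F4 or F6. *Gria2* was −0.49 within female libraries, under the fold limit, and *Gria4*, not called with all libraries (−0.38 ± 0.24), was −0.73 without M4 (adjusted p = 0.0022). *Gria1* differed by −0.16 ± 0.09 (adjusted p = 0.18). These clusters were formed by the authors from all genes, members included, so that the differences describe the clusters.

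To place the subunits within neurons, each neuron with more than 1000 genes was assigned to the regional marker it held most of, relative to that marker's 99th percentile over neurons: *C1ql3* (4239 neurons), a PVT marker, *Adarb2* (1662), *Nwd2* (835) and *Gad2* (283). A further 3288 neurons (31.9%) held too little of any and were left unassigned. The split uses no subunit gene. The *Nwd2* group also held *Tac2* (1156 CPM, here without trimmed-mean scaling), *Chat* (211) and *Pou4f1* (94.5), genes known from the habenula. The *C1ql3* group held *C1ql3* (443) and *Slc17a6* (528). The *Gad2* group goes against a name as inhibitory neurons: beside *Gad2* (324), *Gad1* (37.2) and *Slc32a1* (47.3) it held *Slc17a6* (374) and *C1ql3* (171), so it is called by its rule, and 143 of its 283 neurons fell into *C1ql3* clusters when neurons were clustered without the members by a rule chosen after seeing the data. By the rule over clusters of any size, no cluster was taken by *Gad2*.

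*Nwd2* neurons had another set of subunits than the rest. *Gria1* was higher there, at a background of 20.6% of 11633 genes, and *Gria3*, *Grik1*, *Grik2* and *Grik3* were lower, at a background of 21.7%. *C1ql3* neurons were higher for *Grik1*, *Grik2* and *Grik4* (background 12.6%) and lower for *Gria1* (background 6.9%). *Adarb2* neurons were higher for *Gria3*, *Grik2* and *Grik3* (background 13.8%) and lower for *Gria1* and *Grik4* (background 14.9%). *Gad2* neurons were higher for *Grik1* (1.26 ± 0.19, log2 and SE), *Grik2* (0.82 ± 0.08), *Grik4* and *Gria3* (background 9.29%) and lower for none of the members (background 3.88%). *Gria2*, *Gria4* and *Grik5* were called in no group of this split, but with clusters of at least 50 nuclei made without the members, a rule chosen after seeing the data, *Gria2* was higher in *Gad2* neurons by 0.75 (adjusted p = 1.6e-16, edgeR). Each group is set against the mean of the other 3, and these comparisons share samples, so a change in *Nwd2* neurons moves the values of the others.

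*Gria1* had 1536 to 2687 CPM in *Nwd2* neurons (median 1777), 652 to 1259 in *Gad2* neurons (median 758, n = 8), 405 to 599.5 in *C1ql3* neurons (median 497) and 348 to 544 in *Adarb2* neurons (median 432). The *Nwd2* range lies above the other 3, and the *Gad2* range above the last 2. *Nwd2* neurons exceeded *C1ql3* neurons in 10 of 10 libraries, with *C1ql3* minus *Nwd2* at −1.96 ± 0.09 (log2, SE; adjusted p = 5.9e-25, edgeR). Against the mean of the other groups the *Nwd2* difference was 1.79 ± 0.07, and 1.69 within female and 1.94 within male libraries. *Adarb2* minus *C1ql3* was −0.17 ± 0.09 and did not pass the test. In neurons thinned to 2000 UMIs, 93.8% ± 4.93 (SD, n = 10) of *Nwd2* and 57.7% ± 4.19 of *C1ql3* neurons had a *Gria1* molecule, and at full depth 98.8% and 91.3%.

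*Grik2* went the other way. It had 141 to 588 CPM in *Nwd2* neurons (median 263), against 1816 to 2736 in *C1ql3* neurons (median 2045), 1515 to 2596 in *Adarb2* neurons (median 1876) and 1062 to 2666 in *Gad2* neurons (median 1895). The *Nwd2* libraries all lie below every library of the other groups, and their highest value is that of M4. The *Nwd2* difference was −2.81 ± 0.10 (log2, SE; adjusted p = 5.4e-32, edgeR), −2.96 within female and −2.62 within male libraries. *C1ql3* and *Adarb2* neurons differed by less, *Adarb2* minus *C1ql3* being −0.15 ± 0.09 (adjusted p = 0.16). A *Grik2* molecule was seen in 97.2% ± 1.60 of *C1ql3* and 32.3% ± 10.0 of *Nwd2* neurons thinned to 2000 UMIs, and in 99.8% and 61.7% at full depth.

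*Grik1* separated the groups in 3 steps. It had 366.5 to 669.5 CPM in *C1ql3* neurons (median 448), 194 to 341 in *Adarb2* neurons (median 237) and 16.03 to 122.5 in *Nwd2* neurons (median 37.8). These 3 ranges lie apart from each other. *C1ql3* exceeded *Nwd2* neurons by 3.41 ± 0.24 (log2, SE; adjusted p = 8.2e-13, edgeR) and *Adarb2* neurons fell below *C1ql3* neurons by 0.89 ± 0.17 (adjusted p = 8.9e-05), each in 10 of 10 libraries. *Gad2* neurons (195 to 535, median 443) could not be separated from *C1ql3* neurons (0.17 ± 0.21). *Grik3* was highest in *Adarb2* neurons (101 to 153, median 122) and lowest in *Nwd2* neurons (0 to 76.8, median 26.6), which lie apart, with *Adarb2* minus *Nwd2* at 1.90 ± 0.14 (adjusted p = 2.1e-16). *Adarb2* exceeded *C1ql3* neurons for *Grik3* by 0.40 ± 0.09 in 10 of 10 libraries.

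*Gria3* was highest in *Adarb2* neurons, with 255 to 456 CPM (median 339.5), against 159 to 219.8 in *C1ql3* neurons (median 180) and 47.1 to 140 in *Nwd2* neurons (median 81.5). These 3 ranges do not overlap. *Adarb2* minus *C1ql3* was 0.90 ± 0.13 (log2, SE; adjusted p = 1.3e-06, edgeR), and *C1ql3* minus *Nwd2* 0.92 ± 0.16 (adjusted p = 1.7e-05). In *Gad2* neurons *Gria3* spread from 157 to 487, and its call there (0.54 ± 0.16) was lost without F1 (0.47), F2 (0.49), F3 (0.42) or M3 (0.45). *Grik4* was lowest in *Adarb2* neurons, with 58.2 to 151 CPM (median 88.2), against 173 to 279 in *C1ql3* neurons (median 224) and 88.6 to 204 in *Nwd2* neurons (median 140). *Adarb2* minus *C1ql3* was −1.28 ± 0.08 (adjusted p = 2.2e-19), with no overlap, and *Adarb2* minus *Nwd2* −0.49 ± 0.10 with overlap. *Grik4* in *Gad2* neurons was called higher (0.58 ± 0.10) but not without M4 (0.48).

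The 3 members called in no regional group differed from the mean of the other groups by at most 0.29 on the log2 scale. *Gria2* had medians of 829.6 (*Gad2*), 779.9 (*C1ql3*), 756 (*Adarb2*) and 662.5 (*Nwd2*) CPM, with overlapping ranges from 470.4 to 1216, and was lower in *Nwd2* neurons by 0.26 ± 0.07 (log2, SE), below the fold limit. *Gad2* minus *Nwd2* was its widest pair difference (0.41 ± 0.09, adjusted p = 0.00018, edgeR). *Gria4* had medians of 1002 to 1095 and no difference between any 2 groups passed the test, the widest being *C1ql3* minus *Nwd2* (−0.15 ± 0.07, adjusted p = 0.080). *Grik5* had medians of 97.99 to 110.1, and its widest pair difference was −0.15 ± 0.11 (*Adarb2* minus *Nwd2*, adjusted p = 0.22).

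**Figure D3:**
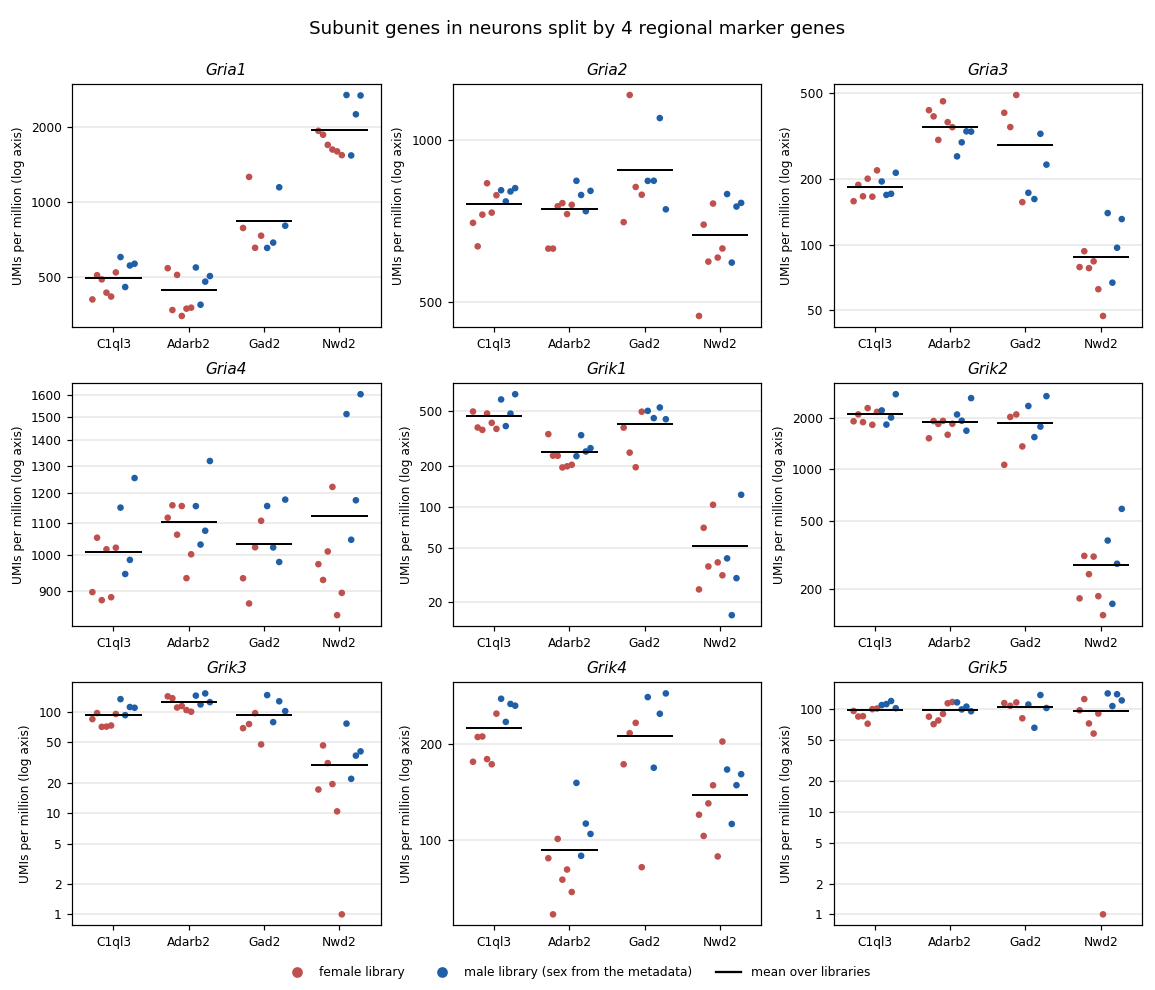
CPM (log axis, values under 1 drawn at 1) of the 9 genes in neurons split by regional marker, 1 dot per library and a bar at the mean. In Nwd2 neurons Gria1 is highest (mean 1939) and Grik1 and Grik2 are lowest (51.6 and 279), while Gria4 stays between 839 and 1602 in all groups.

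The make-up of the receptors' RNA shifted with these groups. *Gria1* held 50.7% ± 3.24 (SD, n = 10) of *Gria* UMIs in *Nwd2* neurons, 27.2% ± 4.19 in *Gad2*, 20.1% ± 1.55 in *C1ql3* and 16.7% ± 2.46 in *Adarb2* neurons. *Gria2*, the subunit that limits calcium entry, held 17.7% ± 2.40 in *Nwd2* neurons, against 28.3% to 31.2% in the other groups, and *Gria3* 13.3% in *Adarb2* and 2.26% in *Nwd2* neurons. Of *Grik* UMIs, *Grik2* held 76.7% ± 3.54 in *Adarb2*, 70.3% ± 2.59 in *C1ql3* and 45.3% ± 5.60 in *Nwd2* neurons. The partner subunits *Grik4* and *Grik5* made up 25.3% ± 10.9 and 16.4% ± 7.76 in *Nwd2* neurons, against 7.59% and 3.37% in *C1ql3* neurons. The level of *Grik4* itself was lower in *Nwd2* than in *C1ql3* neurons in 10 of 10 libraries (*C1ql3* minus *Nwd2* 0.80 ± 0.09, log2 and SE).

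Genes whose products travel with the receptors were compared in the same way. Of the 34 partner genes listed (auxiliary subunits, scaffold and synaptic organizer proteins and RNA editing enzymes), 24 of the 26 tested across cell types were higher in neurons and none was lower, against 34.8% and 23.4% of all genes, led by *Cacng3* (3.48 ± 0.20, log2 and SE), *Shisa9* (3.18 ± 0.19), *Cacng2* (2.74 ± 0.17), *Syndig1* (2.71 ± 0.16) and *Grip1* (2.49 ± 0.15). In *Nwd2* neurons 10 of 34 were higher and 11 lower, in *Adarb2* neurons 8 and 7, in *C1ql3* neurons 8 and 7, and in *Gad2* neurons 7 and 3. Over all tested genes the shares higher and lower were 20.6% and 21.7%, 13.8% and 14.9%, 12.6% and 6.9%, and 9.29% and 3.88%, in the same order. The median log2 difference of the list was −0.16 in *Nwd2* neurons, against 0.04 over all genes.

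Among the auxiliary AMPA subunits, *Cacng2* (stargazin) and *Cacng3*, which bring receptors to the synapse, were lower in *Nwd2* neurons by −2.94 ± 0.12 and −3.33 ± 0.22 (log2, SE). *Cacng2* had 0 to 41.9 CPM in *Nwd2* neurons and 132 to 247 in *C1ql3* neurons, with no overlap. *Shisa6*, which slows receptor desensitization, had 188 to 350 in *Adarb2* neurons and at most 47.8 in any library of the other groups (4.05 ± 0.13, and −1.44 ± 0.19 in *C1ql3* neurons), and *Shisa9* was also higher in *Adarb2* (2.15 ± 0.14) and lower in *Nwd2* neurons (−3.83 ± 0.22), as were *Syndig1* (−3.27 ± 0.16) and *Shisa6* (−2.39 ± 0.27) in the latter. *Cacng5* was higher in *Nwd2* (2.33 ± 0.16) and *Adarb2* neurons (1.32 ± 0.14) and lower in *C1ql3* (−2.63 ± 0.19) and *Gad2* neurons (−1.03 ± 0.28). *Cnih3*, a cornichon that aids receptor export, was higher in *Nwd2* (2.63 ± 0.25) and lower in *C1ql3* neurons (−1.33 ± 0.28), as was the scaffold gene *Grip2* (2.60 ± 0.15 and −1.06 ± 0.16).

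*Gsg1l*, which slows AMPA receptor recovery, was higher in *C1ql3* (2.29 ± 0.17, log2 and SE) and *Gad2* neurons (2.02 ± 0.28) and lower in *Adarb2* neurons (−2.26 ± 0.29). *C1ql3* neurons were also higher for *Cacng3* (1.78 ± 0.13), *Syndig1* (1.52 ± 0.09) and the pentraxin receptor gene *Nptxr* (1.74 ± 0.08), which *Adarb2* neurons had less of (−1.34 ± 0.10). *Gad2* neurons shared the higher *Cacng3* (1.76 ± 0.17) and *Syndig1* (1.25 ± 0.13). *Cacng4* was higher in *Adarb2* (0.99 ± 0.07) and lower in *Gad2* neurons (−0.91 ± 0.11), and *Cacng8* higher in *Gad2* (0.69 ± 0.14) and lower in *Adarb2* neurons (−1.10 ± 0.11). The secreted pentraxins *Nptx1* (5.17 ± 0.20) and *Nptx2* (2.03 ± 0.13), which cluster AMPA receptors, were higher in *Nwd2* neurons. *Nptx1* was lower in *C1ql3* (−3.07 ± 0.39) and *Adarb2* neurons (−1.27 ± 0.36), and *Nptx2* in *Gad2* neurons (−1.04 ± 0.23). *Nptx1* in *Nwd2* neurons had 31.4 to 122 CPM and at most 14.8 in any library of the other groups.

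*Neto1*, an auxiliary subunit of kainate receptors, had 49.2 to 108 CPM in *C1ql3* neurons (1.42 ± 0.12, log2 and SE), 54.6 to 219 in *Gad2* neurons (1.84 ± 0.18), 7.69 to 27.3 in *Adarb2* neurons (−1.42 ± 0.16) and 0 to 28.04 in *Nwd2* neurons. The first 2 ranges lie above the last 2. *Adarb1*, whose product edits the pore codon printed above, had 559.9 to 741 in *Adarb2* neurons, 212 to 295 in *C1ql3* neurons and 55.2 to 181 in *Nwd2* neurons, with no overlap. Its *Adarb2*-group difference was 1.95 ± 0.07 and its *Nwd2*-group difference −1.55. The group was chosen by its paralog *Adarb2* and not by *Adarb1*.

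Over the 38 sums of regional group and library, after each library's mean was removed, *Grik2* was most like *Tenm4* (r = 0.99), *Tox* and *Ppp2r2b* (both r = 0.99), and *Grik1* most like *Gabrb1* (r = 0.96), *Slc35f1* and *Rorb* (both r = 0.95). *Gria1* was most like *Plcl1*, *Cdca7l* (both r = 0.97) and *Samd4* (r = 0.96), *Gria3* like *Mdga2* (r = 0.95), *Kctd16* and *Ppp3ca* (both r = 0.94), and *Grik3* like *Mycbp2* (r = 0.98), *Mgat5b* and *Ppp4r4* (both r = 0.97). For *Grik5* these were *Dnajb14*, *Ei24* (both r = 0.97) and *Uggt1* (r = 0.96), for *Grik4* *Rps6ka2* (r = 0.89), *Zbtb20* and *Bcl11b* (both r = 0.88), for *Gria2* *9530026P05Rik*, *Tbc1d1* (both r = 0.79) and *Cep70* (r = 0.78), and for *Gria4* *Mlh3* (r = 0.74), *Slc25a36* (r = 0.70) and *Dennd4a* (r = 0.69). Members ran along with each other in the same sums: *Grik1* with *Grik2* at r = 0.93, *Grik2* with *Grik3* at 0.87 and with *Gria1* at −0.90. The points share their libraries and 4 groups, so the correlations describe these 4 groups and carry no p.

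The authors' own 8 neuron clusters, which were formed from all genes and are therefore only described, also differed in their subunits, given here as CPM without trimmed-mean scaling. Cluster 6 had the highest *Gria1* (1954 ± 272 CPM, SD over 10 libraries) and the lowest *Grik1* (59.9 ± 40.0) and *Grik2* (284 ± 105). Cluster 3 had the highest *Gria3* (373 ± 74.0). *Grik1* was highest in clusters 2 (585 ± 150.5) and 1 (513 ± 80.0) and low in cluster 4 (151 ± 48.6), where *Gria3* was also lowest (69.1 ± 23.3). Cluster 5 had the highest *Gria2*, at 1212 ± 166.

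Within *C1ql3* neurons, nuclei were assigned in the same way to the PVT subtype markers *Col12a1* (613 neurons), *Cadps2* (510) and *Npsr1* (173, with at least 10 nuclei in 5 libraries). The 2943 neurons with too little of any of them formed a group of their own, called unmarked below. Clustered without the members, by a rule chosen after seeing the data, 634 unmarked neurons fell into *Col12a1*, 576 into *Npsr1* and 248 into *Cadps2* clusters, and 1282 into none of these. Of the *Npsr1* group, 69 neurons fell into *Cadps2* clusters and 86 into *Npsr1* clusters. *Gria3* and *Grik1* separated these groups. *Col12a1* neurons were higher for both and lower for *Grik3* and *Grik4* (backgrounds 6.89% and 6.13% of 9502 genes). *Cadps2* neurons were lower for both and higher for none of the members (backgrounds 7.41% and 6.92%). *Npsr1* neurons were higher for *Grik3* (background 3.34%) and lower for *Gria3* (2.97%), and unmarked neurons were higher for *Gria3* and *Grik1* and lower for none of the members (3.73% and 1.93%). As in the regional split, each group is set against the mean of the others, so a change in any group moves the values of the rest.

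*Grik1* had 565 to 936 CPM in *Col12a1* neurons (median 731), 389 to 686 in unmarked neurons (median 463), 193 to 597 in *Npsr1* neurons (median 287, n = 5) and 50.1 to 205 in *Cadps2* neurons (median 139). *Cadps2* neurons lie below every library of the *Col12a1* and unmarked groups. *Cadps2* minus *Col12a1* was −2.38 ± 0.11 (log2, SE; adjusted p = 8.3e-17, edgeR), lower in 10 of 10 libraries. A *Grik1* molecule was seen in 64.6% ± 9.37 (SD, n = 10) of *Col12a1* and 19.1% ± 5.16 of *Cadps2* neurons thinned to 2000 UMIs, and in 96.3% and 43.2% at full depth.

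*Gria3* had 163 to 364 CPM in *Col12a1* neurons (median 222), 184 to 244 in unmarked neurons (median 206), 54.7 to 116 in *Npsr1* neurons (median 103) and 43.0 to 151 in *Cadps2* neurons (median 55.8). The first 2 ranges lie above the last 2. *Cadps2* minus *Col12a1* was −1.55 ± 0.15 (log2, SE; adjusted p = 7.0e-09, edgeR), while *Cadps2* minus *Npsr1* was −0.14 ± 0.26 (adjusted p = 0.86). *Col12a1* minus unmarked was 0.10 ± 0.11 and did not pass the test (adjusted p = 0.73, edgeR). The *Npsr1* call of *Gria3* (−0.86 ± 0.22) was lost without M3 (−0.59), and that of *Grik3* (0.59 ± 0.14) without M4 (0.49). With clusters made without the members, both calls in *Npsr1* neurons were lost (−0.36 and 0.02), and *Grik1*, at −0.08 in the marker split, was 1.10 there (adjusted p = 2.4e-12, edgeR). These clusters were made within *C1ql3* clusters defined by the rule chosen after seeing the data, and so cover other neurons than the marker split.

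*Grik4* was lower in *Col12a1* neurons, at 90.4 to 225 CPM, than in *Cadps2* neurons, at 163 to 311, with overlap but in 9 of 10 libraries (0.54 ± 0.08, log2 and SE; adjusted p = 2.0e-09, edgeR). *Grik3* was lower in *Col12a1* (29.0 to 104) than in *Npsr1* neurons (109 to 173), which do not overlap (−0.90 ± 0.16, adjusted p = 1.1e-05). Within female libraries its *Col12a1* difference was −0.34 (adjusted p = 0.24). *Gria1* was higher in *Cadps2* than in *Col12a1* neurons in 10 of 10 libraries (0.43 ± 0.06), though its difference from the mean of the groups (0.36 ± 0.05) stayed under the fold limit. *Gria2*, *Gria4*, *Grik2* and *Grik5* differed from the mean of the other groups by at most 0.28 in any subtype group.

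**Figure D4:**
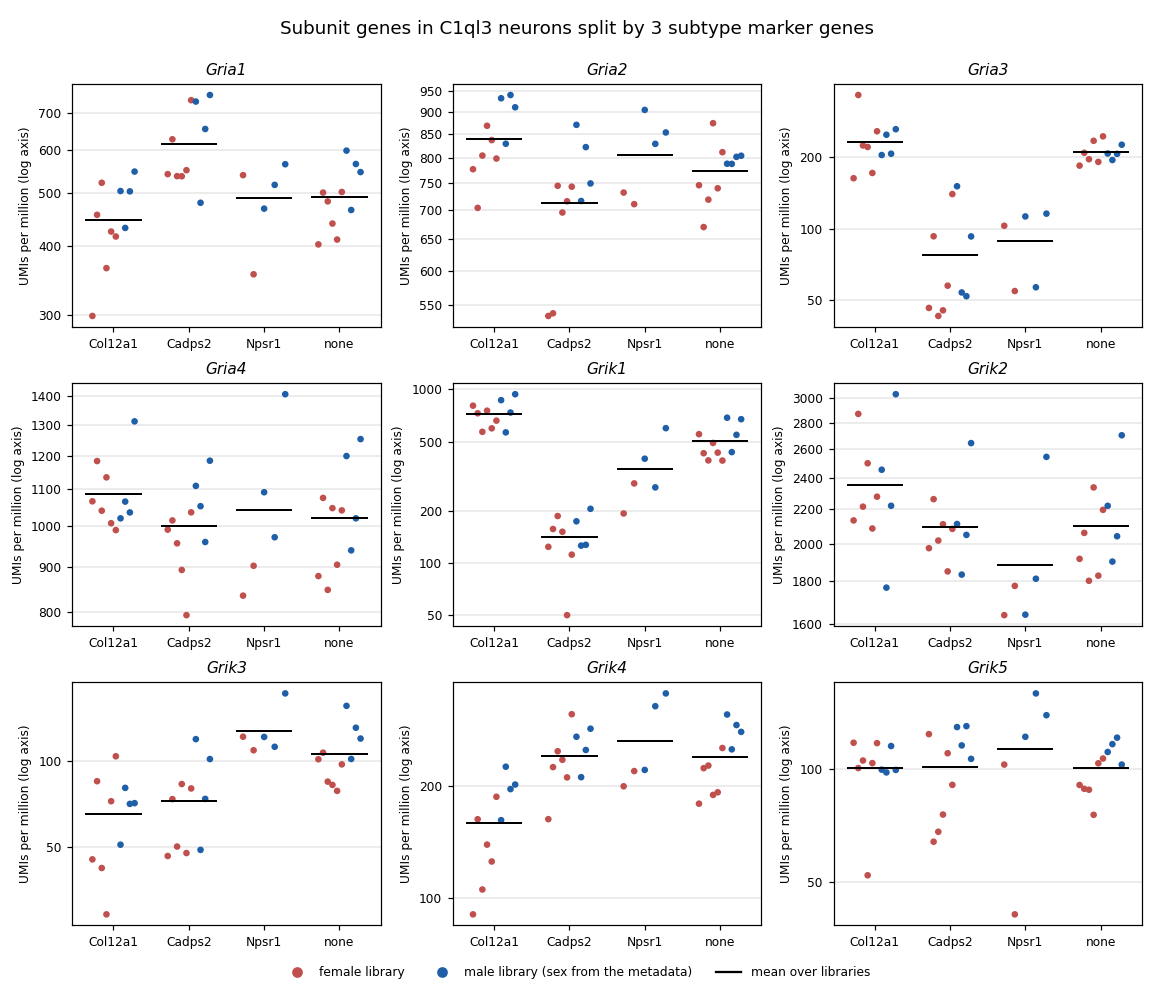
CPM (log axis) of the 9 genes in C1ql3 neurons split by subtype marker, 1 dot per library and a bar at the mean. Grik1 falls from a mean of 721 in Col12a1 to 141 in Cadps2 neurons and Gria3 from 232 to 77.4, while Gria2 and Gria4 overlap across groups.

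Of the partner genes, 31 of 34 passed the count filter in *C1ql3* neurons. In *Cadps2* neurons 5 were higher and 8 lower, in *Col12a1* neurons 8 and 3, in *Npsr1* neurons 2 and 0, and in unmarked neurons 4 and 1. Over all tested genes the shares higher and lower were 6.92% and 7.41%, 6.89% and 6.13%, 3.34% and 2.97%, and 3.73% and 1.93%, in the same order. Against the mean of the other groups, *Cadps2* and *Col12a1* neurons differed in opposite ways for *Cacng3* (1.13 ± 0.06 and −0.93 ± 0.07, log2 and SE), *Syndig1* (0.63 ± 0.06 and −0.56 ± 0.07), *Cacng8* (0.59 ± 0.09 and −0.58 ± 0.10), *Shisa7* (−2.28 ± 0.25 and 1.16 ± 0.17), *Shisa9* (−1.61 ± 0.12 and 0.79 ± 0.11) and *Grip2* (−2.22 ± 0.34 and 1.78 ± 0.21). A change in either group moves the value of the other, so the opposite signs are not independent results. *Cadps2* neurons were also lower for *Cacng4* (−1.57 ± 0.19) and *Dlg2* (−0.71 ± 0.05) and higher for *Gsg1l* (0.80 ± 0.10) and *Cacng7* (0.56 ± 0.11). *Col12a1* neurons were also higher for *Shisa6* (1.09 ± 0.18) and *Grip1* (0.82 ± 0.06). *Npsr1* neurons were higher for *Gsg1l* (0.74 ± 0.15) and *Neto1* (0.73 ± 0.15), and unmarked neurons were higher for *Shisa7* (0.99 ± 0.14), *Cacng4* (0.94 ± 0.12), *Grip2* (0.91 ± 0.19) and *Shisa9* (0.72 ± 0.10) and lower for *Gsg1l* (−1.54 ± 0.10).

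Between female and male libraries, 1 of the 9 members differed in the sum of all neurons by an adjusted p under 0.05 (edgeR), at a background of 15.1% of 15278 genes. *Grik4* had 129, 146, 148, 164, 172 and 175 CPM in the 6 female libraries and 179.6, 215, 221 and 232 in the 4 male ones, without overlap. Female minus male was −0.45 ± 0.10 (log2, SE; adjusted p = 0.0089, edgeR), and with neurons thinned to 2000 UMIs −0.41 (adjusted p = 0.077). *Grik1* (−0.38 ± 0.13, adjusted p = 0.068) and *Grik3* (−0.35 ± 0.12, adjusted p = 0.070) overlap between the sets. Whether the difference of *C1ql3* neurons from the other groups changed with the set could not be read for the members: edgeR's interaction test called 0.0258% of all genes, and 0 of 9 members at an adjusted or an unadjusted p under 0.05. The estimated changes ran from −0.16 ± 0.20 (*Gria3*) to 0.25 ± 0.14 (*Grik2*) and 0.26 ± 0.18 (*Grik3*). Sex, depth, deposit, gene annotation and the doublet call, which only male nuclei carry, cannot be told apart in any of these values. The p-values measure the spread between libraries of pooled animals.

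**Figure D5:**
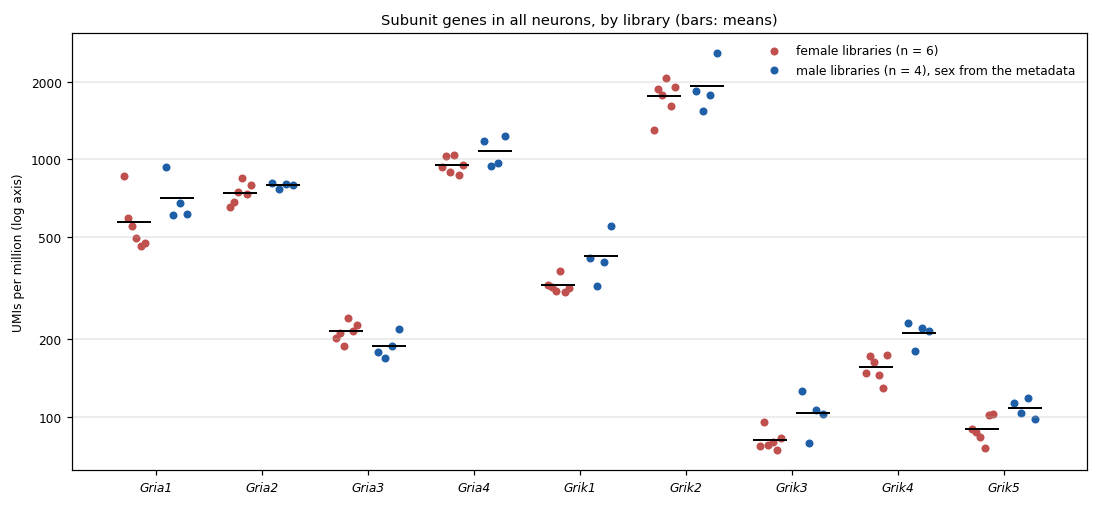
CPM (log axis) of the 9 genes summed over all neurons of a library, 6 female and 4 male libraries, with bars at the means. Grik4 is the gene whose 2 sets lie apart (means 156 and 212), and Grik2 in library M4 (2579.6) is the highest point.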

How the data were processed

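Nuclei were sequenced as 10x Genomics 3' libraries, and Cell Ranger turned reads into counts, after which the authors filtered nuclei and annotated clusters. The submitters' processing notes give Cell Ranger 6.1.1 on mm10, and the paper's methods name another version. The deposited table holds raw UMI counts per gene symbol and nucleus, whole numbers without normalization, and in all 20503 nuclei its sum equals the deposited total. Of the metadata, library, sex and cluster name were used, and 22 further columns of per-nucleus values were not. The 13002 male nuclei are all marked as singlets, the 7501 female nuclei carry no doublet call, and no caller was run here.

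UMIs were summed per library and group (at least 10 nuclei) and tested with edgeR 4.0.16 in R 4.3.3 (TMM, filterByExpr, robust quasi-likelihood, library as a block, Benjamini-Hochberg over all genes tested), each group against the mean of the others. The fits of regional groups, subtype groups and library sets were also run on simulated counts without library effects. The condition set for that run was the direction of planted differences, so it is no check of the p-values here. Neurons were split by marker: at least 2 UMIs and 0.1 (regional) or 0.25 (subtype) of the marker's 99th percentile per 10000 UMIs. The members, lists and comparisons were chosen with earlier results of these data known. All 9 members are named, and of the 34 partner genes those called in a neuron comparison, at most 5 a direction by size. Likeness is Pearson's correlation of log2(CPM + 1), CPM being the scaled counts above. Replicate numbers of the female and male libraries are not known to pair them. Same-numbered libraries correlated at −0.12 to 0.10 in their deviations from the set means, and the other pairs at −0.44 to 0.49. With so few same-numbered pairs this cannot exclude pairing. Clustering used Python 3.11.15 with scanpy 1.11.5. Alternatives included DESeq2 1.42.0, no count filter, other marker limits, leaving out each library or the 5% of nuclei with most UMIs, and each set alone.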

Additional observations from a re-analysis of the deposited data

Results flagged for a closer look

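In groups of 4 to 10 libraries, 180 combinations of gene and group were examined for 1 library that lies far from the rest, by Dixon's ratio of gap to range, and 31 had one. Chance marks about 1 in 20 groups of independent, normally spread values. These combinations share libraries and nuclei, and whether 31 exceeds chance was not tested. Library M4 accounts for 20 of the 31, F4 for 3, F1, F2 and M1 for 2 each, and F3 and M3 for 1 each. M4 is also the library with the highest neuron gene sum in each other cell type, and the part of that in its values was not tested.

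For *Grik2*, M4 was the high library in astrocytes (700.1 CPM), in astrocyte clusters 1 (635) and 2 (1009), in endothelial (859.5), ependymal (1539) and microglial nuclei (879.7) and in OPCs (2019). Within neurons it was high for *Grik2* in *Adarb2* (2596), *C1ql3* (2736), *Cadps2* (2646) and *Npsr1* neurons (2547). For *Gria4*, M4 was high in astrocytes (206 CPM) and in their clusters 1 (186) and 2 (406). M4 was also high for *Grik1* in neurons (748) and astrocyte cluster 2 (170.3), for *Gria1* in OPCs (824) and fibroblasts (1497), for *Gria2* in fibroblasts (546) and for *Grik3* in *Npsr1* neurons (173).

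The other libraries stood apart in single groups. M1 was high for *Grik4* in astrocytes (259.5 CPM) and ependymal cells (351), and M3 for *Grik5* in astrocyte cluster 2 (151). F1 was high for *Gria1* in endothelial cells (646) and, among female libraries, in the sum of all neurons (860.3). F2 was high for *Grik3* in oligodendrocytes (79.6) and for *Gria3* in *Col12a1* neurons (364), and F3 for *Gria4* in fibroblasts (712). F4 was high for *Grik5* in fibroblasts (79.3) and for *Grik1* among female libraries (369.7), and low for *Grik5* in *Col12a1* neurons (52.1).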

How the results depend on the processing

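Of 2601 values recomputed under an alternative, 2486 kept their side of the threshold or, for shares without a threshold, stayed close. Another 64 were no longer past the threshold, 39 came to be past it, 11 values moved and 1 called value reversed. Direction was checked only for values called with all libraries, and some uncalled values changed sign. *Grik1* in *Npsr1* neurons, for example, ran from −0.23 to 0.12 (log2) when 1 library was left out. The reversed value is *Grik3* in oligodendrocytes, which was 0.29 (log2; edgeR, adjusted p = 0.62) in female libraries alone. Of the 9 members, 2 differed between astrocyte clusters, 1 without the 5% of nuclei with most UMIs, 1 with no library block, and 1 to 2 when 1 library was left out. Between the female and male libraries 1 member was called, 3 without the count filter, 3 by DESeq2, and 1 to 3 when 1 library was left out. With the replicate number as a block 0 were called by edgeR, where *Grik4* was −0.43 (adjusted p = 0.096), and the numbers are not known to pair libraries. Thinned to 2000 UMIs a neuron, 1 member was called, *Grik3* (−0.49, adjusted p = 0.042) in place of *Grik4* (adjusted p = 0.077). Counts of calls left without 1 library were 48 to 53 across cell types (52 with all), 17 to 18 across regional groups (18) and 9 to 10 across subtypes (10). Other settings moved the cell type count further. It was 45 within female libraries, 35 within male libraries and 43 with sums of at least 20 nuclei. Without the 5% of nuclei with most UMIs it was 57. The causes were not tested.

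Neurons were also split by clusters made without the members. With clusters of at least 50 nuclei, a rule chosen after seeing the data, *Grik4* (0.41) and *Grik2* (0.40) in *Gad2* neurons fell under the fold limit, and *Gria2* in *Gad2* (0.75) and *Grik3* in *C1ql3* neurons (0.67) came to be called. With clusters of any size no cluster was taken by *Gad2*, so each group was set against fewer groups than in the main split. There *Grik1* in *Adarb2* (0.85) and *Grik3* in *C1ql3* neurons (0.56) came to be called, which is not a like-for-like comparison. Subtype clusters were made within the *C1ql3* clusters of the rule of at least 50 nuclei, and so cover other neurons than the marker split. With them, *Grik3* in *Col12a1* (−0.29) and *Npsr1* neurons (0.02), *Gria3* in *Npsr1* (−0.36) and *Grik1* in unmarked neurons (0.30) lost their calls, and *Grik1* (1.10) and *Grik4* (0.55) in *Npsr1* neurons gained one. Without the 5% of nuclei with most UMIs, *Grik4* in astrocytes (0.64), *Grik1* in oligodendrocytes (0.79), *Grik1* in *Adarb2* neurons (0.52), and *Grik2* (0.54), *Grik1* (−0.90) and *Gria3* (−0.89) in ependymal cells came to be called. Every member other than *Gria1* and *Gria4* had 0 UMIs in at least 1 library of 1 group.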
